A study of Homo sapiens with 2 samples.

Results

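Interferon-stimulated genes are genes whose transcription rises when a cell senses interferon, and 45 of them were examined in the HEL cell line, a human erythroleukemia line that grows in suspension. The genes were taken by symbol alone from a list of 45 names out of the 61806 genes of the deposited count table, and each name was found by its symbol in the deposited FPKM values or by its Ensembl identifier in the counts. Wild-type HEL cells were cultured in RPMI with fetal bovine serum and were given L1, the small molecule under study, at 1 µM, or 0.5% DMSO, the vehicle, and RNA was taken at 24 h. Messenger RNA was captured on beads and 1 library was sequenced per condition, so the culture, the library and the treatment cannot be told apart. The design has no replicate check, no test was run, and all intervals below are exact 95% Clopper-Pearson intervals from the split of a gene's counts between both libraries, which cover counting error only.

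Type I interferons bind a receptor of the subunits IFNAR1 and IFNAR2, whose kinases JAK1 and TYK2 phosphorylate STAT2. STAT2 joins IRF9 in a complex that binds the interferon-stimulated response element, or ISRE, a tandem repeat with a GAAA core in the promoters of the target genes. The targets encode sensors of foreign RNA, enzymes that block viral replication, membrane proteins that stop viral entry, and brakes such as USP18 that end the response.

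The letters of this element are shown first because the genes are known to be switched on through it. Promoter windows of 300 bases, from 250 bases before to 50 bases after a start, were read from the RefSeq promoter table on GRCh38.p14, which held 50 starts for 35 of the 45 members. The ISRE letters searched, GAAA, then any 2 bases, then GAAA, were present on either strand in a window of 21 of these 35 members (60.0%) and of 4.38% of the 27305 genes in the table. The letters TTCNNNGAA of the gamma-activated site, or GAS, were present in 10 of the 35 members (28.6%) and in 9.38% of all genes. A match is a description of the letters and is not evidence of binding. The stretches below begin 150 bases before the start and are printed in the direction of transcription, with matches to these letters on either strand in capitals. RSAD2, EIF2AK2 and OAS3 had windows among the 3 highest and the 3 lowest members by log2 ratio with at least 100 counts. For a gene with more than 1 start, the start with the most matches is shown. RSAD2 is thus shown from the second of its 2 starts, and its first start held 0 matches.
RSAD2, chr2:6877627-6877776, plus strand: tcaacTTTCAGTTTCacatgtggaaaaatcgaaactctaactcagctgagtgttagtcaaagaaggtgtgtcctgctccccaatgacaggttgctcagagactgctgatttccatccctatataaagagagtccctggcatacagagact
EIF2AK2, chr2:37156977-37157130, minus strand: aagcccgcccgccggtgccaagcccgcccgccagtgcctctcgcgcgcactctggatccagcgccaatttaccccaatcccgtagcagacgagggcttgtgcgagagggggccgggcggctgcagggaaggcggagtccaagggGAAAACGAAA
OAS3, chr12:112938324-112938473, plus strand: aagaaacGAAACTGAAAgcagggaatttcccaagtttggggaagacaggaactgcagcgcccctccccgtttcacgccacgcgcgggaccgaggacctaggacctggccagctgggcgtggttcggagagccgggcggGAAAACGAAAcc
IFIT1, ISG15 and IFI6 were added after the values were seen, as members whose stretch held a pair of matches.
IFIT1, chr10:89392473-89392622, plus strand: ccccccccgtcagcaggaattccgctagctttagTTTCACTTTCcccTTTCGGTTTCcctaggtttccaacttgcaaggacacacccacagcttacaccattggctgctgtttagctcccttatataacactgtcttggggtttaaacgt
ISG15, chr1:1013347-1013496, plus strand: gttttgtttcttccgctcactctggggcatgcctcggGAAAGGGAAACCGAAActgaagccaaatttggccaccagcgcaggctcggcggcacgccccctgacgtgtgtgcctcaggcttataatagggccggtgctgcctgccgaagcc
IFI6, chr1:27672193-27672342, minus strand: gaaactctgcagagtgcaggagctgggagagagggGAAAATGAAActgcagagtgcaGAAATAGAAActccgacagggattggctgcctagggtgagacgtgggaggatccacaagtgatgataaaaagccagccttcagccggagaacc
The matches began 145 bases before the start in RSAD2 and 6 bases before it in EIF2AK2, where the match runs into the transcript. OAS3 held matches at 143 and 12 bases before the start. The 2 matches of ISG15, at 113 and 107 bases before the start, overlap and form a single longer run of the repeat. RSAD2, which had the highest ratio, and EIF2AK2 and OAS3, which were among the lowest, all held the letters in the window shown.

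The DMSO library held 32556872 counts and the L1 library 27135647. They were scaled by the TMM method, which set the DMSO library 1.16 times as large as the L1 library, the ratio that the deposited FPKM values also carry. Of 11 erythroid and megakaryocyte marker genes, 10 had at least 100 counts in both libraries, and PF4 was at 0 in both. Of 16 markers of T, B, monocyte, plasmacytoid dendritic, epithelial and fibroblast cells, 7 were at 0 in both libraries and 10, these included, were under 10 counts in both. LYZ had 647 counts with DMSO and 486 with L1. The others were KRT8 with 342 and 234, CD79A with 113 and 60, CD2 with 57 and 55, CSF1R with 36 and 2, and IL3RA with 34 and 22. The summed level of the list was 1229 and 871 counts. In bulk RNA a lower share of cells that express a gene cannot be told apart from less RNA of that gene per cell.

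Of the 45 members, 42 had at least 10 counts in at least 1 library and 36 had at least 100. The 3 members below this minimum were OAS2 with 4 counts with DMSO and 5 with L1, OASL with 0 and 4, and IFI44L with 0 and 3. A count of 0 allows up to 3 counts, so no ratio is given for OASL and IFI44L. FPKM values were deposited for 39 members and not for OAS2, OASL, ISG20, IFI27, IFI44L and XAF1. The FPKM table covers 13924 genes, and no member it leaves out had over 21 counts in either library.

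The level per length differed between members far more than between libraries. IFITM2, a membrane protein that blocks the fusion of viruses, had the highest FPKM, 58.8 in DMSO and 65.1 in L1. UBE2L6, the conjugating enzyme of ISG15, followed at 54.3 and 54.4 FPKM, and the nuclear DNA sensor IFI16 at 42.9 and 47.6 FPKM. At the other end OAS1, an enzyme activated by double-stranded RNA, had 0.126 FPKM in DMSO and 0.112 in L1. The order of IFITM2 and UBE2L6 could not be tested against a spread between cultures. In each library 12 of the 39 members were at 10 FPKM or more, and 7 in DMSO and 4 in L1 were below 1. The median FPKM of the members was 3.89 in DMSO and 5.19 in L1, beside 5.19 and 5.11 for all genes in the table. The largest shift in rank among the members was that of RSAD2, from place 19 in DMSO (4.11 FPKM) to place 7 in L1 (18.7 FPKM). The gene lengths that the FPKM values imply differ from the annotated exon length for some members, 12714 against 4947 bases for OAS1, so FPKM levels of different members are approximate.

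**Figure D1:**
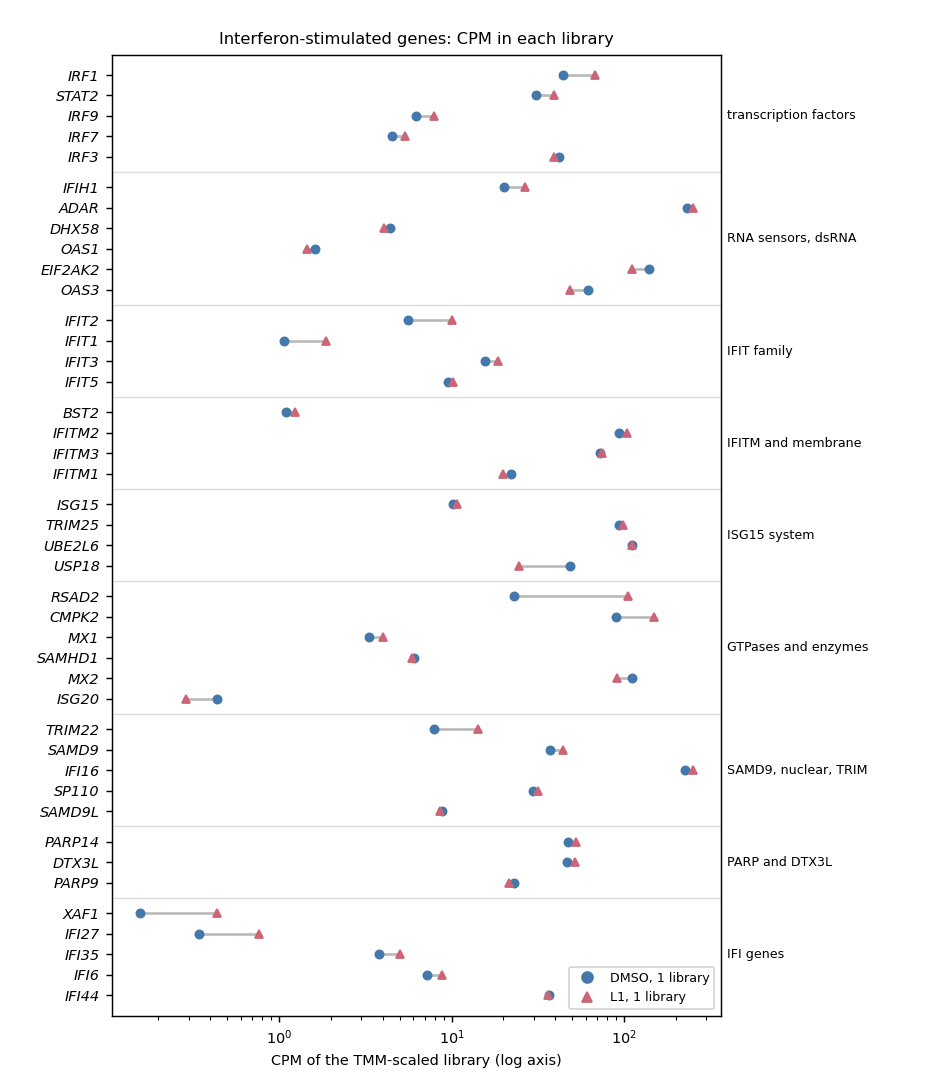
CPM, the counts relative to the TMM-scaled library size, on the x axis (log scale) for the 42 members with at least 10 counts, grouped by role on the y axis, with a blue circle for the DMSO library and a red triangle for the L1 library. Most pairs lie close together, and the widest gaps among members with at least 100 counts are those of RSAD2 to the right and USP18 to the left.

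As a group the members showed a shift of small size toward L1 and few large differences. With a prior count of 2, 29 of the 42 members (69.0%) lay above 0 in the log2 ratio of L1 over DMSO, against 49.6% of the 18123 genes with at least 10 counts. The median log2 ratio was 0.15 over the members, with quartiles at -0.04 and 0.34, and was -0.004 over all genes, with quartiles at -0.28 and 0.30. At least 2-fold higher in L1 were 3 of the 42 members (7.14%), RSAD2, XAF1 and IFI27, against 7.12% of all genes, and 0 were at least 2-fold lower, against 4.83%. XAF1 and IFI27 had at most 21 counts, and among the 36 members with at least 100 counts RSAD2 alone passed 2-fold upward (2.78%), against 3.13% of all genes at this depth. None of the 36 passed it downward, against 2.92%. The share of members past 2-fold upward was thus near that of all genes, while downward it was 0 against 4.83%.

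At 1.5-fold, 8 members (19.0%) were higher in L1, against 13.8% of all genes, and USP18 alone was lower (2.38%), against 11.4%. The whole interval lay past 2-fold upward for RSAD2 only (2.38% of the members), against 3.02% of all genes, and past 2-fold downward for 0 members, against 1.93%. The interval lay above 0 for 19 members (45.2%), against 26.8% of all genes, and below 0 for 4 members (9.52%), which were MX2, EIF2AK2, OAS3 and USP18, against 28.6%. For the other 19 members it included 0. Within 0.5 of 0 on the log2 scale lay 33 of the 42 members (78.6%) and 69.7% of all genes. The summed counts of the members were 56976 with DMSO and 54373 with L1, a log2 ratio of 0.15 (0.13 to 0.16), and without RSAD2 the log2 ratio was 0.09 (0.07 to 0.10). The median over the members was 0.14 without RSAD2.

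**Figure D2:**
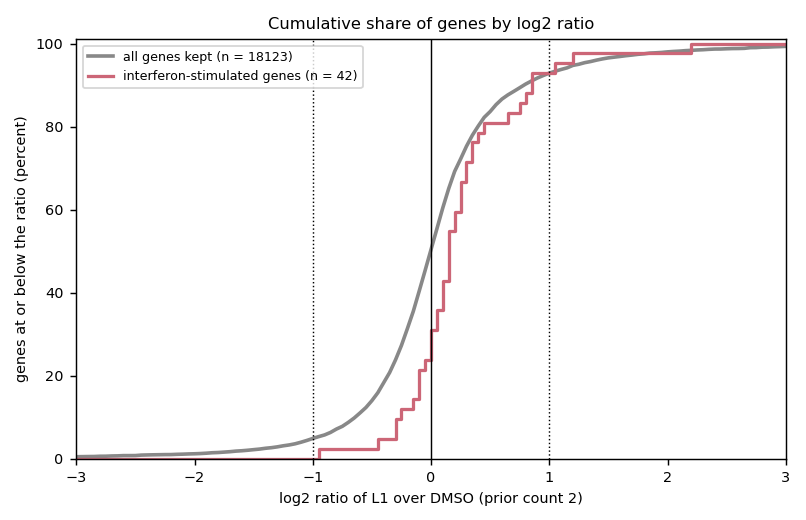
Cumulative percent of genes (y axis) at or below each log2 ratio of L1 over DMSO with a prior count of 2 (x axis), for the 42 members (red steps) and all 18123 genes kept (grey line), with dotted lines at 2-fold. The members run to the right of all genes around 0, with medians of 0.15 and -0.004, and meet them at 2-fold higher.

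The transcription factors that carry the interferon signal had intervals above 0 in 3 of 5 cases, against 26.8% of all genes, and IRF9, 1 of these 3, depends on how overlapping genes are counted. IRF1, an early target of interferon-gamma, had 1408 counts with DMSO and 1871 with L1, which gave a log2 ratio of 0.62 (0.52 to 0.72). Exons of IRF1 overlap those of C5orf56 on the other strand over 1716 bases, and C5orf56 had 444 and 517 counts. STAT2, a subunit of the complex that binds the ISRE, had 985 counts with DMSO and 1082 with L1, which gave a log2 ratio of 0.35 (0.22 to 0.47). IRF9, its DNA-binding partner, had 199 and 217 counts, which gave a log2 ratio of 0.34 (0.05 to 0.62). Of the 31-base words in IRF9 transcripts, 45.2% also occur in the overlapping gene AL136295.5, and the counts of both genes together, 431 and 480, gave 0.37. With all genes linked to IRF9 by exon overlap on its strand summed, 1357 and 1210 counts, the log2 ratio of the sum was 0.05. This sum also holds counts of genes other than IRF9 and AL136295.5, so it is not a ratio of IRF9 alone. IRF7, which amplifies interferon production, had 145 counts with DMSO and 148 with L1, and its interval included 0 (log2 ratio 0.24, -0.10 to 0.58). IRF3, which is present before infection and is activated by phosphorylation, had 1335 and 1082 counts, with a log2 ratio of -0.09 (-0.21 to 0.03). Exons of IRF3 overlap those of BCL2L12 on the other strand over 734 bases, and BCL2L12 had 1100 and 946 counts.

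The sensors and enzymes of double-stranded RNA went both ways. IFIH1, the cytosolic RNA sensor also called MDA5, had 646 counts with DMSO and 737 with L1, which gave a log2 ratio of 0.40 (0.25 to 0.56). ADAR, which deaminates adenosine in double-stranded RNA, had the most counts of the 45 members, 7392 with DMSO and 6936 with L1, at a log2 ratio of 0.12 (0.07 to 0.17). EIF2AK2, the kinase PKR that halts translation, was lower in L1, with 4460 counts with DMSO and 3057 with L1. Its log2 ratio was -0.33 (-0.40 to -0.27). OAS3, which makes the oligoadenylates that activate RNase L, had 1983 and 1349 counts, which gave a log2 ratio of -0.34 (-0.44 to -0.24). EIF2AK2 and OAS3 thus lay near one another, below all genes' lower quartile. OAS1, a paralog of OAS3 in the same cluster on chromosome 12, had 52 counts with DMSO and 40 with L1 and an interval that included 0 (log2 ratio -0.17, -0.80 to 0.46). DHX58, a relative of IFIH1 without a signalling domain, had 140 and 112 counts, with a log2 ratio of -0.11 (-0.48 to 0.26).

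The 4 IFIT genes, whose proteins bind viral RNA and block its translation, lie together at chr10:89283694-89421001. All 4 had a log2 ratio above 0, against 49.6% of all genes, though the interval of IFIT5 included 0. IFIT2 (ENSG00000119922) had 180 counts with DMSO and 279 with L1, which gave a log2 ratio of 0.85 (0.57 to 1.12). IFIT1 (ENSG00000185745) had 34 counts with DMSO and 52 with L1, which gave a log2 ratio of 0.83 (0.17 to 1.49). IFIT1 and IFIT2 were the higher pair in ratio and the lower pair in counts. IFIT3 (ENSG00000119917), which binds IFIT1, had 503 and 515 counts, which gave a log2 ratio of 0.25 (0.07 to 0.43). IFIT5 (ENSG00000152778) had 304 counts with DMSO and 283 with L1, which gave a log2 ratio of 0.11 (-0.13 to 0.35), so the interval included 0. The intervals of IFIT2 and IFIT3 do not overlap, so the cluster did not move by a single ratio within counting error.

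The membrane restriction factors differed little between the libraries. IFITM2 had 3002 counts with DMSO and 2868 with L1, which gave a log2 ratio of 0.15 (0.07 to 0.22). IFITM3, which acts in endosomes, had 2332 and 2044 counts, which gave a log2 ratio of 0.02 (-0.06 to 0.11). IFITM1, found at the cell surface, had 705 and 550 counts, which gave a log2 ratio of -0.15 (-0.31 to 0.02). These 3 paralogs share sequence, with 35.3% of the 31-base words of IFITM1, 45.2% of those of IFITM2 and 36.4% of those of IFITM3 found in another gene, and IFITM1 and IFITM2 share 351 exon bases on 1 strand. The split of reads between them is therefore uncertain, and their sum, 6039 counts with DMSO and 5462 with L1, gave a log2 ratio of 0.07 (0.02 to 0.12). BST2, the tetherin that holds budding virus on the membrane, had only 35 counts with DMSO and 34 with L1, and its log2 ratio was 0.17 (-0.55 to 0.89).

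Of the members grouped as the ISG15 system, ISG15, UBE2L6 and TRIM25 had intervals that included 0, while the protease USP18 was lower in L1. ISG15, a ubiquitin-like protein, had 327 counts with DMSO and 297 with L1, which gave a log2 ratio of 0.07 (-0.16 to 0.31). UBE2L6 had 3559 and 3076 counts, and its log2 ratio was 0.00 (-0.07 to 0.07). TRIM25, a ligase that also acts on RNA sensors, had 2996 counts with DMSO and 2712 with L1, with a log2 ratio of 0.07 (-0.01 to 0.14). USP18 (ENSG00000184979, chr22:18149899-18177397, plus strand), which removes ISG15 from its targets and holds back the receptor through IFNAR2, had 1551 counts with DMSO and 683 with L1. Its FPKM was 11.9 with DMSO and 6.08 with L1, and the log2 ratio of -0.97 (-1.10 to -0.84) was the lowest of the 42 members, with 5.08% of all genes below it. Of the 31-base words of USP18 transcripts, 30.8% occur in another gene, chiefly the copy USP41, which had 65 counts with DMSO and 44 with L1. With USP41 added, the log2 ratio of USP18 was -0.94 (-1.07 to -0.81).

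The largest difference among the members was in the nucleotide enzymes. RSAD2 (ENSG00000134321, chr2:6865806-6898239, plus strand) encodes viperin, which converts CTP into a chain terminator of viral RNA synthesis. It had 739 counts with DMSO and 2907 with L1, a 4.56-fold difference. The log2 ratio of 2.19 (2.07 to 2.31) was above that of 98.3% of all genes. CMPK2 (ENSG00000134326, chr2:6840570-6866635, minus strand), a mitochondrial kinase that supplies nucleotides, starts beside RSAD2 in the opposite direction, and exons of both overlap over 14 bases. It had 2863 counts with DMSO and 4096 with L1, which gave a log2 ratio of 0.73 (0.66 to 0.80). The intervals of RSAD2 and CMPK2 do not overlap, so the pair differed in ratio beyond counting error. Of the other members of this role, 1 had an interval below 0 and 3 had intervals that included 0. MX2, a dynamin-like GTPase, had 3574 counts with DMSO and 2524 with L1, which gave a log2 ratio of -0.29 (-0.36 to -0.21). Its neighbour MX1 had 107 and 111 counts, which gave a log2 ratio of 0.27 (-0.13 to 0.66). The intervals of MX1 and MX2 do not overlap. SAMHD1, which breaks down deoxynucleotides, had 193 counts with DMSO and 162 with L1, with a log2 ratio of -0.04 (-0.35 to 0.27). Exons of SAMHD1 and TLDC2 overlap on opposite strands, and TLDC2 had 11 and 3 counts. ISG20, an RNA exonuclease, had 14 counts with DMSO and 8 with L1, with a log2 ratio of -0.59 (-2.05 to 0.76).

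**Figure D3:**
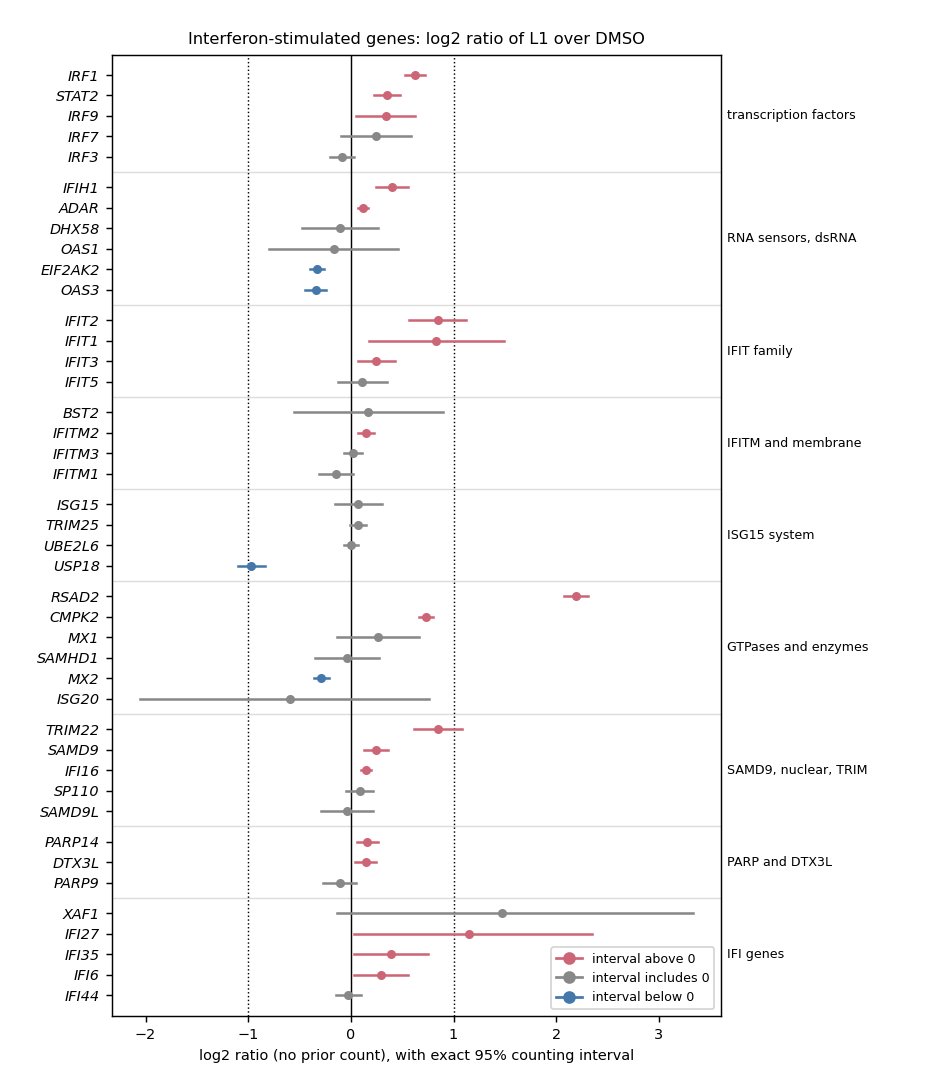
Log2 ratio of L1 over DMSO without a prior count (x axis, dots) with the exact 95% counting interval (lines) for the 42 members with at least 10 counts, grouped by role, with dotted lines at 2-fold. RSAD2 at 2.19 stands apart on the right, USP18 at -0.97 on the left, and the wide lines of XAF1, IFI27 and ISG20 belong to members with at most 21 counts.

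Among the nuclear, SAMD9 and TRIM factors, TRIM22 stood above the rest. TRIM22 (ENSG00000132274, chr11:5689689-5737089, plus strand), a ligase that restricts viral transcription, had 254 counts with DMSO and 394 with L1, which gave a log2 ratio of 0.85 (0.62 to 1.08), and other genes share 16.2% of its 31-base words. SAMD9, which restricts poxviruses, had 1194 and 1219 counts, which gave a log2 ratio of 0.24 (0.13 to 0.36), while its paralog SAMD9L had 282 and 237 counts and a log2 ratio of -0.04 (-0.29 to 0.22). The intervals of SAMD9 and SAMD9L overlap. IFI16 had 7227 counts with DMSO and 6912 with L1, which gave a log2 ratio of 0.15 (0.10 to 0.20). SP110, a nuclear body protein, had 951 and 870 counts, which gave a log2 ratio of 0.08 (-0.05 to 0.22). PARP14, a mono-ADP-ribosyltransferase, had 1517 and 1463 counts, which gave a log2 ratio of 0.16 (0.06 to 0.27). PARP9 and the ubiquitin ligase DTX3L form a complex and are transcribed in opposite directions, with 217 shared exon bases. DTX3L had 1503 counts with DMSO and 1433 with L1, which gave a log2 ratio of 0.14 (0.04 to 0.25), and PARP9 had 739 and 591 counts, which gave a log2 ratio of -0.11 (-0.27 to 0.05).

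The IFI genes were measured at very different depths. IFI35, a partner of NMI, had 122 counts with DMSO and 138 with L1, which gave a log2 ratio of 0.39 (0.03 to 0.75). IFI6, a membrane protein of mitochondria and the endoplasmic reticulum, had 231 and 244 counts, which gave a log2 ratio of 0.29 (0.03 to 0.56). IFI44 had 1173 counts with DMSO and 995 with L1 and an interval that included 0, with a log2 ratio of -0.02 (-0.15 to 0.10). IFI44L, next to it on chromosome 1, was at 0 counts with DMSO and 3 with L1. IFI27, a small membrane protein, had 11 counts with DMSO and 21 with L1, which gave a log2 ratio of 1.15 (0.03 to 2.35). XAF1, which opposes the apoptosis inhibitor XIAP, had 5 and 12 counts, which gave a log2 ratio of 1.48 (-0.13 to 3.33). At these counts a difference in XAF1 was not detectable, since its interval included 0.

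Genes around RSAD2 and USP18 were read after the values of both were known. All 6 other genes with at least 10 counts within 500 kb of RSAD2 had an interval above 0, against 26.8% of all genes. NRIR, a long noncoding RNA beside CMPK2, had 61 counts with DMSO and 138 with L1, which gave a log2 ratio of 1.39 (0.95 to 1.85). RNF144A, a ubiquitin ligase gene, had 3436 and 4624 counts, which gave a log2 ratio of 0.64 (0.58 to 0.71). RNF144A-AS1 was the lowest of the 6 at 0.24 (0.09 to 0.39). The highest was the noncoding AC010904.2 at 2.46 (1.34 to 3.77), from only 8 counts with DMSO and 38 with L1. The neighbours of USP18 differed more widely. PEX26, a peroxisome gene 2 protein-coding places away, had 397 counts with DMSO and 1672 with L1, which gave a log2 ratio of 2.29 (2.13 to 2.45), the opposite direction to USP18. TUBA8, the next protein-coding gene to USP18 on that side, had 213 and 143 counts, which gave a log2 ratio of -0.36 (-0.68 to -0.05). Its span overlaps that of PEX26 on the same strand.

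**Figure D4:**
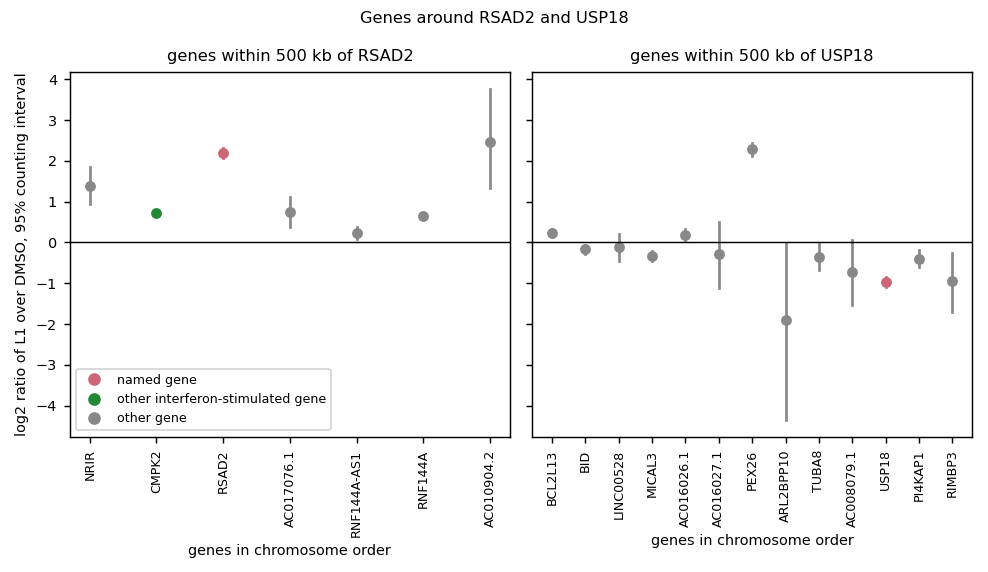
Log2 ratio of L1 over DMSO with 95% counting intervals (y axis) for genes with at least 10 counts within 500 kb of RSAD2 (left) and USP18 (right), in chromosome order (x axis), with the named gene in red and CMPK2, another member, in green. The 7 genes on the left all lie above 0, while on the right USP18 at -0.97 lies near PEX26 at 2.29.

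Members with and without the ISRE letters searched had similar median ratios. The 20 members with at least 10 counts and the ISRE letters in a window had a median log2 ratio of 0.15, from -0.50 to 2.19, with 14 above 0. The 14 members with a window but without these letters had a median of 0.13, from -0.16 to 1.17, with 11 above 0. Of all genes, 49.6% were above 0. The repeat with a spacer of 1 base, GAAANGAAA, was searched after the window of RSAD2 had been seen, and was present in 14 of the 35 members (40.0%) and in 3.87% of all genes. The first start of RSAD2 held 4 such repeats and a window of CMPK2 that overlaps it held 2. Members counted as without the ISRE letters, XAF1 and CMPK2 among them, hold this repeat. USP18, TRIM22, IFIT2 and MX2 have no window and are left out. The comparison therefore cannot show whether the element goes with the ratio.

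**Figure D5:**
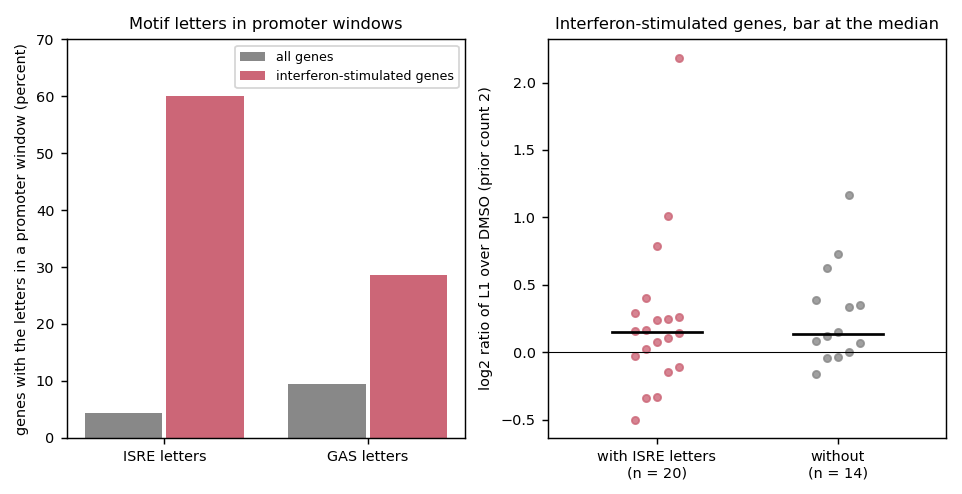
Left, percent of genes with the ISRE or GAS letters in a promoter window (y axis) for the 27305 genes in the RefSeq table (grey bars) and the 35 members with a window (red bars), 4.38% and 60.0% for the ISRE. Right, log2 ratio of L1 over DMSO (y axis) of single members with and without the ISRE letters, with black bars at the medians of 0.15 and 0.13.

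Other components of the pathway and other interferon-induced genes were read from a separate list. This list of 73 genes, drawn from general knowledge, had 54 genes with at least 10 counts, of which 2 (3.70%, against 7.12% of all genes) were at least 2-fold higher in L1 and 0 were at least 2-fold lower (4.83% of all genes). Their median log2 ratio was 0.01, and 27 of the 54 were above 0. The interval lay above 0 for 17 of them (31.5%, against 26.8% of all genes) and below 0 for another 17 (31.5%, against 28.6%). The 10 interferon genes of the list had 0 to 4 counts in either library, with IFNB1 and IFNA2 at 0 in both. No transcript of these 10 genes was thus detectable at this depth above a few counts, and other interferon genes were not read. Of the receptor subunits, IFNAR1 had 5001 counts with DMSO and 4306 with L1, and the interval of its log2 ratio ran from -0.06 to 0.06. IFNAR2, the other chain of the type I receptor and the chain that USP18 binds, had 2115 and 1343 counts, which gave a log2 ratio of -0.44 (-0.54 to -0.34). IFNAR2 shares 2038 exon bases on 1 strand with AP000295.1, which had 413 and 320 counts, so the split of their reads is uncertain. The interferon-gamma receptor chains IFNGR1 and IFNGR2 had log2 ratios of -0.10 and -0.08. IL10RB, which serves the lambda receptor, had a log2 ratio of 0.30, and IFNLR1 was at 0 counts in both libraries. IL10RB overlaps AP000295.1 as well, over 1732 exon bases. With IFNAR2, IL10RB and AP000295.1 summed, 3374 and 2563 counts, the log2 ratio of the sum was -0.18. This sum holds the counts of both receptor genes, so it gives the direction of neither alone. The split of reads between IL10RB and AP000295.1 is uncertain as well.

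The receptor kinases lay close to 0. JAK1 had a log2 ratio of 0.10 (0.06 to 0.14) and TYK2 one of 0.08 (0.01 to 0.16). Among the sensors, adaptors and kinases of innate sensing on the list, MYD88 had 377 counts with DMSO and 1371 with L1. MYD88, the adaptor of most Toll-like receptors, thus had a log2 ratio of 2.08 (1.91 to 2.24). The other genes of this group with at least 10 counts lay between -0.52 and 0.20 on the log2 scale. TICAM1, the adaptor of TLR3, had 558 and 335 counts, which gave a log2 ratio of -0.52 (-0.72 to -0.33). DDX58, the sensor RIG-I, had a log2 ratio of -0.29 (-0.46 to -0.13), the DNA sensor CGAS, listed as MB21D1, one of -0.27 (-0.39 to -0.15), and its adaptor STING, listed as TMEM173, one of -0.33 (-0.46 to -0.21). MAVS, the adaptor of the RNA sensors, had a log2 ratio of 0.10, and the interval of the kinase TBK1 ran from -0.08 to 0.07. The kinase IKBKE had 161 and 160 counts, with a log2 ratio of 0.20 (-0.12 to 0.53). The RNA sensor TLR3 had 111 and 104 counts, with a log2 ratio of 0.12 (-0.28 to 0.52), and the sensor ZBP1 was at 0 in both libraries. GBP1, a GTPase induced by interferon-gamma, was the second pathway gene past 2-fold, with 59 counts with DMSO and 114 with L1 and a log2 ratio of 1.16 (0.70 to 1.64), and other genes share 18.4% of its 31-base words. Its paralog GBP3 had a log2 ratio of 0.52 (0.26 to 0.77), and GBP4 and GBP5 had -0.05 and 0.06.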

How the data were processed

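Reads of 1 DMSO and 1 L1 library of HEL cells were cleaned by the authors with fastp 2.0, per the submitters' processing notes, and aligned to hg38 with HISAT2 2.1.0, and StringTie is also named there. The authors deposited raw read counts per Ensembl gene, without normalization, and FPKM values that carry the same library scaling. The counting program, the annotation and the use of strand are not given in the sources used here, so reads of genes that overlap on opposite strands cannot be told apart.

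Counts were scaled by TMM in edgeR 4.0.16 (R 4.3.3). Size factors from DESeq2 1.42.0 served as an alternative scaling. Other steps used Python 3.11.15, numpy 2.4.6, pandas 2.3.3, scipy 1.17.1 and matplotlib 3.10.9. For counts of genes and medians, 2 was added to each scaled count, and a gene entered if either library held 10 or more of its reads (18123 genes). Called means past 2-fold. The ratio of a named gene has no prior count and carries an exact counting interval. The computation was tested on simulated data. GENCODE release 29 (GRCh38) gave positions and exon overlaps, and RefSeq the promoter windows.

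All 45 members are named. Of the pathway genes, those past 2-fold, the receptor subunits, the kinases and the sensors are named. A gene that this rule names is not reported here. The rule for the members uses symbols and no measured value, but the members, the lists and the rule for named genes were chosen with earlier results of these data known. The alternatives were 3 scalings, FPKM with pseudocounts of 0.1 and 1, other minimum and prior counts, other thresholds and overlapping genes summed. Sums over paralogs, results without RSAD2, the neighbours and the repeat with a spacer of 1 base were added after the data were seen. A line of the FPKM table without a value was left out.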

Additional observations from a re-analysis of the deposited data

How the results depend on the processing

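No paired analysis was possible because each group holds a single library. The number of members at least 2-fold higher, 3 as reported, was 1 with log2(FPKM + 0.1), log2(FPKM + 1), at least 100 counts, a prior count of 5, 3-fold and the whole counting interval past 2-fold, and RSAD2 passed in each. It was 2 with DESeq2 size factors, 5 with no minimum count and 8 at 1.5-fold, and the number at least 2-fold lower went from 0 to 1 at 1.5-fold. Under the alternatives listed in the methods, sums over paralogs apart, the median of the members stayed between 0.09 and 0.20, and 25 to 32 members were above 0. The median of the other pathway genes lay between -0.02 and 0.06 and changed sign, at a size under 0.1 throughout. Of 171 single-member values under other scalings, as FPKM or with overlapping genes summed, 167 stayed inside the member's own counting interval. None of those whose interval excluded 0 changed sign. The 39 FPKM values repeat the reported ratios by construction, since FPKM carries the TMM library scaling. Each other scaling shifts all members by the same amount, so staying inside depended on the width of the interval. Only sums of overlapping genes could move a member on its own, and there 4 values stayed and 2 moved. Among those that stayed, TRIM22 and IFIT2 could not move, since the genes summed with them had 0 counts in both libraries. The 4 values outside were IFI16 and ADAR under total counts, at 0.20 and 0.17, and IRF9 and IFITM1 with overlapping genes summed, at 0.05 and 0.10. With the 3 IFITM genes summed, an alternative chosen after seeing the data, IFITM1 and IFITM2 were both given 0.07. Depth limits ISG20, IFI27, XAF1, BST2, IFIT1 and OAS1, whose intervals span more than 1 on the log2 scale. Effects between cultures were not measured.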

Other observations

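The interferon-gamma targets and brakes of the pathway, which belong to the separate list above, gave the following values. Those with at least 10 counts are already in its 54 genes, GBP1, GBP3, GBP4 and GBP5 among them. Of the 6 interferon-gamma targets with at least 10 counts, 5 had a log2 ratio above 0, with a median of 0.35, beside 49.6% of all genes above 0 and a median of -0.004. CIITA, the activator of MHC class II genes, had 323 counts with DMSO and 378 with L1, which gave a log2 ratio of 0.44 (0.22 to 0.66). The chemokines CXCL9 and CXCL10 were at 0 in both libraries, and CXCL11 had 0 counts with DMSO and 6 with L1. Of 9 negative regulators, the phosphatases PTPN11 and PTPN6 were the lowest, with log2 ratios of -0.40 (-0.44 to -0.36) and -0.43 (-0.50 to -0.36). SOCS3 had 730 counts with DMSO and 641 with L1, which gave a log2 ratio of 0.03 (-0.13 to 0.18), and SOCS1 had 24 in each.

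Among 21 other interferon-induced genes with at least 10 counts, also part of the 54 genes above, the median log2 ratio was -0.02. Of these 21, 10 (47.6%) lay above 0. The members had a median of 0.15, with 29 of 42 (69.0%) above 0, so their small shift was not seen in these 21 genes. IFI30, a lysosomal thiol reductase, had a log2 ratio of 0.87 (0.55 to 1.19), and the antiviral zinc finger gene ZC3HAV1 one of 0.40 (0.34 to 0.46). The helicase gene DDX60 was the lowest at -0.35 (-0.47 to -0.23), with 1376 counts with DMSO and 933 with L1. HERC5 had 625 counts with DMSO and 472 with L1, which gave a log2 ratio of -0.19 (-0.37 to -0.02). IFI30 shares 997 exon bases with AC007192.1 on 1 strand, and that gene had 436 counts with DMSO and 0 with L1. With all genes linked to IFI30 by exon overlap on its strand summed, 603 and 437 counts, the log2 ratio of the sum was -0.25. This sum holds the counts of other genes, AC007192.1 among them, so it does not give the direction of IFI30 alone. The split of reads between IFI30 and AC007192.1 is uncertain.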
